A study of Mus musculus with 43 samples.

Results

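The mu class glutathione transferases of the mouse are encoded by 7 genes, Gstm1 to Gstm7. Their gene rows were picked out by symbol from each of 2 deposited expression tables, 7 of 55804 gene rows in each table. All 7 have an Ensembl identifier of their own. With a minimum mean level of 1 TPM, a unit of transcript abundance, 6 of the 7 were tested in each table, among 16776 genes in one and 17592 in the other, and Gstm3 was not. The family drew attention because Gstm1 differed between treated and vehicle libraries of these same tables. For that reason, treated libraries are described against vehicle and wild type libraries by their values, fold changes and overlaps. Whether a member was called there is given as part of the description: Gstm1 was chosen on these contrasts, so a call there supports nothing and is printed without its p-value. The comparison of vehicle with wild type libraries did not enter that choice and is given with its tests. Its vehicle libraries did enter the choice, so those tests are not independent of it. How many of all genes separate groups without overlap was not counted, so a lack of overlap is a description only.

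In this study 2 mouse models of Alzheimer's disease received CDDO-2P-Im (2P-Im below), an oleanane triterpenoid made by synthesis as an inducer of the transcription factor NRF2, and RNA from brain was sequenced. The AppNLGF table holds libraries of mice 6 months old: 13 of AppNLGF (AppNL-G-F/NL-G-F) mice given 2P-Im, 11 of AppNLGF mice given vehicle and 4 of wild type mice given vehicle. The APP/TAU table holds libraries of mice 11 months old, 5 each of APP/TAU (APPV717I::TAUP301L) mice given 2P-Im, APP/TAU mice given vehicle and wild type mice given vehicle. The dose was 30 µmol/kg by mouth, 3 times per week, over 4 weeks in AppNLGF mice and over 2 weeks in APP/TAU mice. The vehicle was 10% DMSO and 10% Cremophor EL in PBS, and the labels give no schedule for the wild type mice. AppNLGF mice carry their disease mutations in their own App gene, whereas APP/TAU mice carry human transgenes. The labels name the tissue only as brain, and do not state whether the libraries are of different animals, so a p-value here reflects only how these libraries spread. Age, model and length of treatment all differ between the tables, and no difference between the tables was tested.

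Glutathione transferases join the tripeptide glutathione to reactive, electrophilic compounds, which can then be exported and broken down to mercapturates. The mu class enzymes are dimers found in the cytosol, and in mouse brain Gstm1 is known mainly from astrocytes. NRF2 is kept low by KEAP1 and, when released, binds antioxidant response elements near detoxifying genes, several glutathione transferases among them. Gstm5 is the mouse counterpart of human GSTM3, which is known from brain and testis.

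The 7 genes lie together on chromosome 3 of GRCm38 (GENCODE M21), from 107895821 to 108044894, a span of 149.074 kb. Gstm5, on the plus strand, spans 107895821 to 107898686 at one end of the cluster. The other 6 lie on the minus strand in the order Gstm7, Gstm6, Gstm3, Gstm2, Gstm1 and Gstm4. Gstm1 spans 108012255 to 108017973, and its neighbours Gstm2 and Gstm4 span 107981702 to 107986453 and 108040408 to 108044894. Gstm7 spans 107926334 to 107931817, Gstm6 spans 107938847 to 107943749 and Gstm3 spans 107963696 to 107969283.

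The coding sequences are close copies, which bears on every value below because the authors' program had to divide reads among them. The coding sequence is 657 bases long in all members except Gstm5, where it is 675. Against Gstm1, 89.5% of aligned coding bases were identical in Gstm3, 86.0% in Gstm2, 82.8% in Gstm6, 82.6% in Gstm7, 80.2% in Gstm4 and 71.4% in Gstm5. The start of the coding sequence of each member, the first 90 bases of Gstm1 and the bases aligned to them (GRCm38 chr3, 5′ to 3′ on the strand of the gene, from the GENCODE M21 transcripts), is printed to show how far the copies differ. Capitals mark bases that differ from Gstm1 or are inserted relative to it.
Gstm1: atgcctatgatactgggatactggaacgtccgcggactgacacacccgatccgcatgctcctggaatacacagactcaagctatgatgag
Gstm2: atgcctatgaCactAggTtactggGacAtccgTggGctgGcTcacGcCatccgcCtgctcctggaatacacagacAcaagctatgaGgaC
Gstm3: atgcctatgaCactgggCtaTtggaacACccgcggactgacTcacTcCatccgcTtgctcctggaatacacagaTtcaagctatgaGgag
Gstm4: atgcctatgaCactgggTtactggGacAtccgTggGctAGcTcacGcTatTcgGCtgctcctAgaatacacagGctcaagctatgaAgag
Gstm5: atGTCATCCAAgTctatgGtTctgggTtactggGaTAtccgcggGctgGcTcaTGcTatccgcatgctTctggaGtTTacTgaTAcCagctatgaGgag
Gstm6: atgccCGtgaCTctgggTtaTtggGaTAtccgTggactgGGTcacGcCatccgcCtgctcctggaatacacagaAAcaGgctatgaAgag
Gstm7: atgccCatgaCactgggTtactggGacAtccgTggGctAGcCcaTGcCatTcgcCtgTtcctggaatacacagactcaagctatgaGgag
In this stretch Gstm3 differs from Gstm1 at 11 bases, Gstm2 at 15, Gstm4 and Gstm7 at 17, Gstm6 at 20 and Gstm5 at 31. Over whole transcripts, 16.9% of the 31-base words of Gstm1 also occur in another member, 195 of its 1366 words in Gstm3 alone. The share was 22.4% for Gstm3, 8.62% for Gstm6, 5.76% for Gstm2, 2.97% for Gstm4 and 1.72% for Gstm7, and Gstm5 shared 0 of its words with any member. Genes outside the family hold 28.8% of the words of Gstm1, mostly the pseudogene Gstm2-ps1, which was listed at no more than 0.297 TPM in any AppNLGF library and at 0 in every APP/TAU library. Values of Gstm1, Gstm2, Gstm3 and Gstm6 therefore depend most on how reads were divided, and those of Gstm5 least.

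The promoter windows of Gstm1 and Gstm5, the most abundant members, are printed to show where the core of an antioxidant response element does and does not occur. They run from 250 bases before the RefSeq transcription start to 50 after it (RefSeq, GRCm38.p6), at chr3:108017769-108018068 on the minus strand for Gstm1 and chr3:107895604-107895903 on the plus strand for Gstm5. Capitals mark TGACNNNGC, the response element core searched on both strands, and TATAAA, searched likewise.
Gstm1: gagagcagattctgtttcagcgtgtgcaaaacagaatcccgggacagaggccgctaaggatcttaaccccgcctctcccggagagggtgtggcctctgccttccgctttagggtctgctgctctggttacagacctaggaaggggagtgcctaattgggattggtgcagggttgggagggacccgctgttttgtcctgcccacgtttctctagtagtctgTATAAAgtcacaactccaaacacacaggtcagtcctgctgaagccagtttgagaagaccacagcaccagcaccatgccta
Gstm5: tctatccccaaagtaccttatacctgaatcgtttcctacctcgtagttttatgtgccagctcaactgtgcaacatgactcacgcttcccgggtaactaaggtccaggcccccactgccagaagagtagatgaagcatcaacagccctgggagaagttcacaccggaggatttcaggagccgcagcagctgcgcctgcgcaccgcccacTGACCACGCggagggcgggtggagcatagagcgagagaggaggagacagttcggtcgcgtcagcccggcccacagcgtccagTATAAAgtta
The RefSeq table held 12 such windows for the 7 members. TGACNNNGC was found in the Gstm5 window, at base 209, and in 1 of the 2 Gstm7 windows. It was not found in the 2 windows of Gstm1, the second of which lies at chr3:108017924-108018223, nor in those of Gstm2, Gstm3, Gstm4 or Gstm6. Of all 32851 promoter windows in that table, 12.4% held it. TATAAA, held by 13.6% of all windows, occurred at base 221 of the Gstm1 window printed, before the start, and at base 291 of the Gstm5 window, after it. The cores are letters in a window of 300 bases, and enhancers farther away were not searched.

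TPM divide reads by transcript length and scale every library to the same total, so sequencing depth is lost and the read number of a value is not known. One RNA without a symbol in the gene names used, ENSMUSG00000118866, took 15.5 to 40.0% of the TPM of a library, which moves all other genes the other way. In the APP/TAU table it averaged 29.5 ± 1.54% in 2P-Im libraries, 22.0 ± 6.59% in vehicle libraries and 30.1 ± 3.72% in wild type libraries (SD, n = 5 each). Values are therefore given as deposited and after median-ratio scaling, in which a library is divided by the median, over tested genes, of its ratio to their geometric mean. The median fold of all genes in APP/TAU 2P-Im against vehicle libraries was -0.19 on the log2 scale as deposited and 0.00 with median-ratio scaling. Markers of neurons, astrocytes, oligodendrocytes, microglia and blood vessels were above 0 in every group of both tables. The tables differed in regional markers. As deposited the 4 markers of cerebellum summed to group means of 26.2 to 27.9 TPM in the AppNLGF table and 331 to 361 TPM in the APP/TAU table, and the 4 of striatum to 247 to 294 TPM and 44.3 to 53.4 TPM.

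Gstm1 and Gstm5 made up nearly all Gstm RNA in every group, and Gstm3 was close to undetected. In the AppNLGF table the deposited level of Gstm1 averaged 168 ± 33.5 TPM in 2P-Im libraries (SD, n = 13), 121 ± 16.5 TPM in vehicle libraries (n = 11) and 118 ± 15.2 TPM in wild type libraries (n = 4). Gstm5 averaged 86.7 ± 9.95, 92.9 ± 6.17 and 97.9 ± 5.83 TPM in 2P-Im, vehicle and wild type libraries. Below them came Gstm7, at 7.98 ± 1.30 TPM in 2P-Im, 8.12 ± 1.38 TPM in vehicle and 9.51 ± 0.666 TPM in wild type libraries. As deposited Gstm1 and Gstm5 overlapped between libraries in the AppNLGF vehicle group, at 96.3 to 144 and 81.8 to 100.9 TPM, and in the wild type group of that table, at 100.1 to 137 and 90.3 to 104 TPM. Gstm7 lay below both in every group of both tables.

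The 3 least abundant tested members lay between 1.41 and 4.90 TPM on average as deposited. Gstm4 averaged 3.76 ± 0.909 TPM in AppNLGF 2P-Im libraries, 3.13 ± 0.770 TPM in vehicle and 3.61 ± 0.531 TPM in wild type libraries. Gstm6 averaged 3.12 ± 1.05, 3.04 ± 0.794 and 2.73 ± 0.965 TPM in 2P-Im, vehicle and wild type libraries, so that its level and that of Gstm4 did not differ beyond their spread. Gstm2 was lower, at 1.64 ± 0.549, 1.47 ± 0.456 and 1.41 ± 0.356 TPM in 2P-Im, vehicle and wild type libraries. Gstm3 was listed at 0 in 9 of 13 2P-Im libraries, 9 of 11 vehicle libraries and 4 of 4 wild type libraries of the AppNLGF table. Its highest value there was 0.216 TPM. In the APP/TAU table it was listed at 0 in 3 of 5 2P-Im, 5 of 5 vehicle and 4 of 5 wild type libraries. A gene listed at 0 in a TPM table can be a failed estimate, here beside the close copy Gstm1.

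In AppNLGF mice Gstm1 was the member that set 2P-Im libraries apart. With median-ratio scaling its lowest, median and highest levels were 139.6, 167 and 208 TPM in 2P-Im libraries and 98.9, 124 and 136 TPM in vehicle libraries. The 4 wild type libraries held 100.2, 106, 113 and 134 TPM. All 13 treated libraries lay above every vehicle and every wild type library, and the share of all genes with such a gap was not counted. As deposited the ranges overlapped, with 113, 158 and 233 TPM as the lowest, median and highest in 2P-Im libraries against 96.3, 119.7 and 144 TPM in vehicle libraries and 100.1, 114, 120.3 and 137 TPM in the wild type libraries. Then 9 of 13 treated libraries lay above every vehicle library and 11 of 13 above every wild type library.

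**Figure D1:**
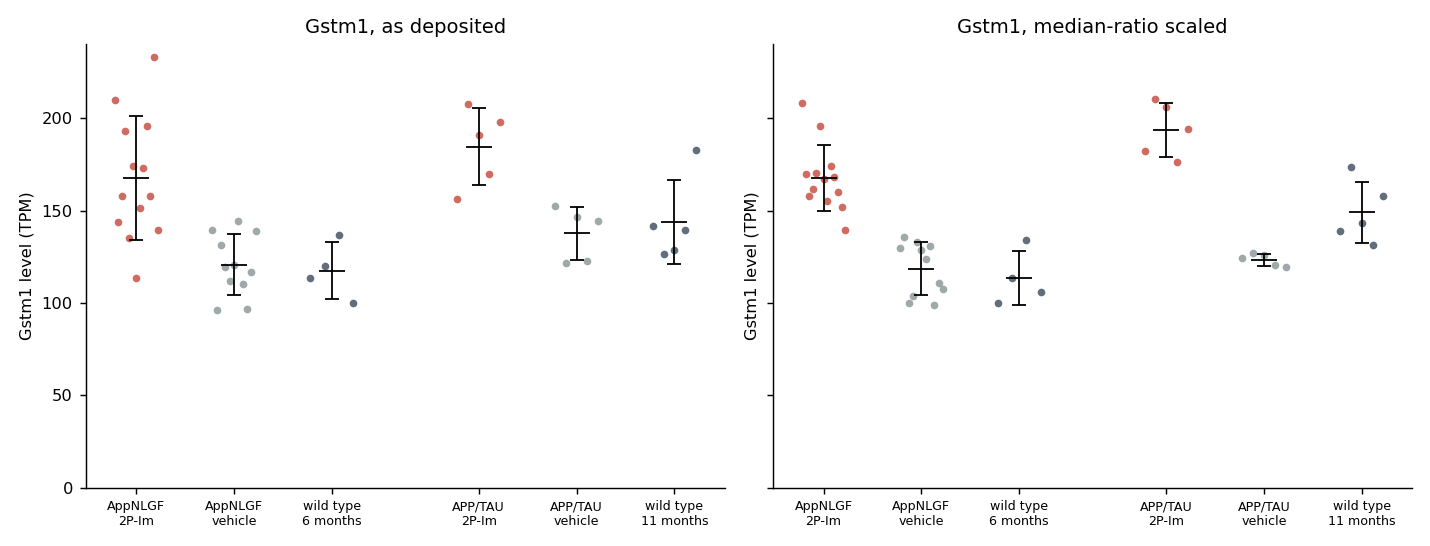
Gstm1 level in TPM (y axis) in each library of the 6 groups (x axis), as deposited in the left panel and with median-ratio scaling in the right panel. Each point is a library, and the bar and its error are the mean ± SD of the group. With median-ratio scaling the 13 AppNLGF 2P-Im libraries (139.6 to 208 TPM) and the 5 APP/TAU 2P-Im libraries (176 to 210.3 TPM) lie above all vehicle and wild type libraries of their table.

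The fold of Gstm1 between AppNLGF 2P-Im and vehicle libraries was 0.50 ± 0.065 on the log2(TPM + 1) scale with median-ratio scaling (SE), and it was among the genes called at an adjusted p below 0.05 in limma's fit of all genes. It was 0.46 ± 0.095 as deposited and was not called. Of the 6 tested members, 1 was called with median-ratio scaling, where 0.286% of all genes were, and 0 as deposited, where 0.0536% were. As deposited 2 of the 6 members had an unadjusted p below 0.05, and so had 1036 of all 16776 genes. The choice of Gstm1 rested on this contrast, so nothing is read from that call or those shares. As deposited the call depended on single libraries: it was made without 2P-Im replicate 1 (0.50 ± 0.088), 2 (0.48 ± 0.096) or 5 (0.48 ± 0.097), or without vehicle replicate 8 (0.48 ± 0.097). These 3 treated libraries held 39.3 to 40.0% of their TPM in the abundant RNA, the 3 highest shares of the table.

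Gstm1 also set the treated libraries apart in APP/TAU mice. As deposited Gstm1 measured 170.1, 208, 157, 198 and 191 TPM in 2P-Im libraries, 145, 153, 122, 146 and 123 TPM in vehicle libraries and 139.8, 142, 129, 183 and 126 TPM in wild type libraries. All 5 treated libraries lay above every vehicle library and 3 of 5 above every wild type library, 1 of which, at 183 TPM, stood apart from the rest of its group. With median-ratio scaling the levels were 182, 206, 176, 194 and 210.3 TPM in 2P-Im libraries, 127, 119.6, 124, 120.5 and 126 TPM in vehicle libraries and 143, 174, 139, 158 and 132 TPM in wild type libraries. The 3 groups did not overlap on that scale: all treated libraries were highest and all vehicle libraries lowest. How many of all genes separate these groups as fully was not counted, so nothing is read from the lack of overlap.

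The fold of Gstm1 between APP/TAU 2P-Im and vehicle libraries was 0.64 ± 0.068 with median-ratio scaling, which was called, and 0.42 ± 0.11 as deposited, which was not. Of the 6 tested members, 1 was called with median-ratio scaling, against 0.0114% of all genes, and here too the gene was chosen on this contrast, so nothing is read from the call. The 2 genes called there were Gstm1 and Ftl1, the ferritin light chain (0.41 ± 0.042). As deposited 0 members and 0% of genes were called by limma, although 2 members and 4719 genes had an unadjusted p below 0.05. Without the 2 vehicle libraries in which the abundant RNA was under 20% of TPM, the fold with median-ratio scaling was 0.62 ± 0.083 and was not called.

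Treated libraries were also set against wild type libraries. In AppNLGF 2P-Im against wild type libraries its fold was 0.56 ± 0.090 with median-ratio scaling, which was called, and 0.49 ± 0.13 as deposited, which was not. Of the 6 tested members, 1 was called with median-ratio scaling, where 0.715% of genes were, and 0 as deposited, where 0.262% were. As deposited 3 members had an unadjusted p below 0.05, and so had 1296 of all 16776 genes. In APP/TAU 2P-Im against wild type libraries the fold of Gstm1 was 0.38 ± 0.068 with median-ratio scaling and 0.36 ± 0.11 as deposited, and neither was called. There 0 of the 6 members were called by limma on either scale, where 0.0284% and 0.0227% of genes were, and 2 and 1 members had an unadjusted p below 0.05. Without wild type replicate 2 the fold was 0.44 ± 0.059 with median-ratio scaling and was called. These comparisons share the treated libraries with those against vehicle, are not independent of them or of the choice of Gstm1, and their calls are a description too.

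**Figure D2:**
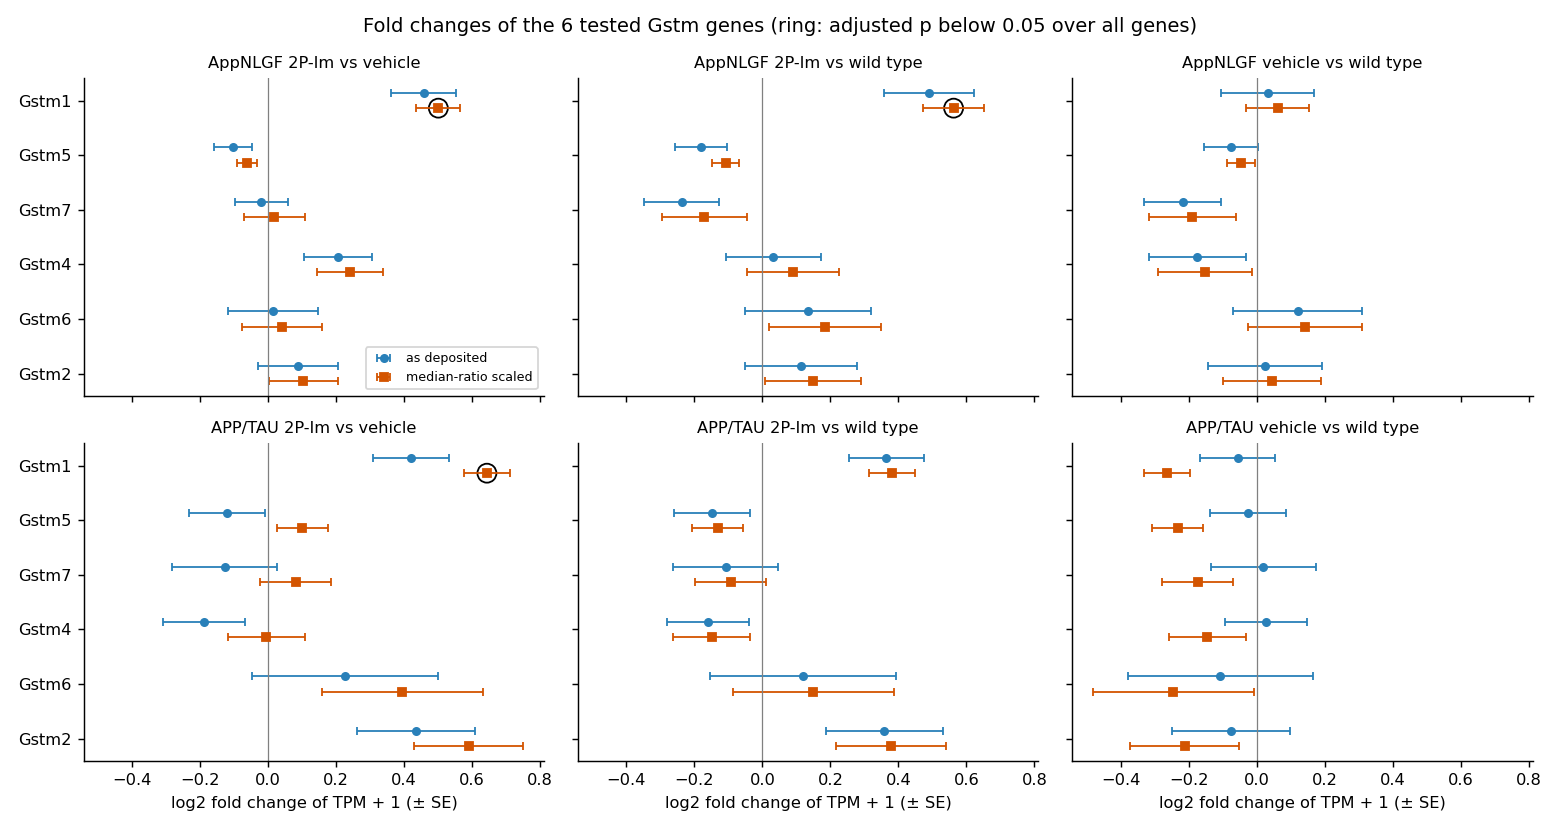
Log2 fold (x axis, log2(TPM + 1) scale) of the 6 tested members (y axis) in the 6 comparisons, 1 panel each. Points are the fold and bars its SE, blue circles as deposited and orange squares with median-ratio scaling, and a black ring marks an adjusted p below 0.05 over all genes. Rings appear on Gstm1 alone, in AppNLGF 2P-Im against vehicle and against wild type and in APP/TAU 2P-Im against vehicle, each with median-ratio scaling.

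The balance among members differed too, by a measure that does not depend on how a library is scaled. Gstm1 took 61.5 ± 3.26% of the summed Gstm TPM in AppNLGF 2P-Im libraries, 52.4 ± 3.20% in vehicle libraries and 50.4 ± 2.95% in wild type libraries. The lowest treated library, at 57.3%, lay above the highest vehicle library (56.5%) and the highest wild type library (54.7%). The share in APP/TAU mice was 61.7, 64.7, 61.1, 65.4 and 64.2% in 2P-Im libraries, 54.4, 53.6, 53.8, 57.9 and 54.1% in vehicle libraries and 55.0, 59.2, 53.1, 53.1 and 55.8% in wild type libraries. Treated libraries did not overlap either of the other groups in this table, while vehicle and wild type libraries overlapped each other. This share holds the Gstm1 values on which the gene was chosen, so the lack of overlap is a description only.

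The ratio of Gstm1 to Gstm5, the member that shares no 31-base word with it, is likewise free of scaling. It was 1.93 ± 0.307 in AppNLGF 2P-Im libraries, 1.30 ± 0.166 in vehicle libraries and 1.20 ± 0.136 in wild type libraries, with ranges of 1.59 to 2.73, 0.989 to 1.49 and 1.11 to 1.40. For APP/TAU mice the ratio was 2.10, 2.43, 1.95, 2.44 and 2.30 in 2P-Im libraries, 1.51, 1.45, 1.43, 1.77 and 1.51 in vehicle libraries and 1.55, 1.76, 1.47, 1.45 and 1.61 in wild type libraries. Again no treated library overlapped a vehicle or wild type library. The ratio, like the share, rests on the Gstm1 values on which the gene was chosen. How many of all genes separate as fully was not counted, so nothing is read from the lack of overlap. The ratio shows an unequal change between the 2 genes, not that Gstm5 was constant. The ratio of Gstm7 to Gstm5 averaged 0.0927, 0.0880 and 0.0972 in AppNLGF 2P-Im, vehicle and wild type libraries, and 0.150, 0.150 and 0.145 in those of APP/TAU, with overlapping ranges.

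**Figure D3:**
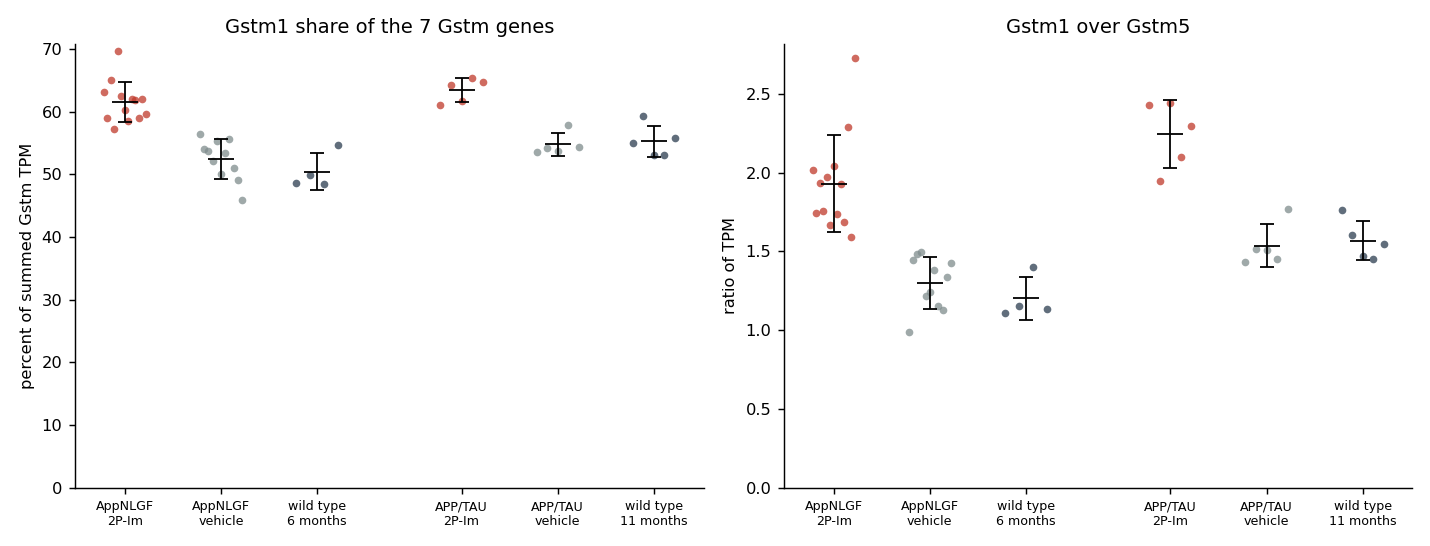
Left, Gstm1 as a percent of the summed TPM of the 7 members (y axis), and right, the ratio of Gstm1 to Gstm5 TPM (y axis), in each library of the 6 groups (x axis). Points are libraries and bars the mean ± SD. In both panels the 2P-Im libraries of each table lie above all vehicle and wild type libraries of that table, as with 57.3% or more against 56.5% or less in AppNLGF mice. Both measures hold the Gstm1 values on which the gene was chosen.

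The summed level of the family followed Gstm1. With median-ratio scaling it averaged 272 ± 15.2 TPM in AppNLGF 2P-Im libraries, 225 ± 15.8 TPM in vehicle libraries and 224 ± 16.0 TPM in wild type libraries, and 12 of 13 treated libraries lay above every vehicle library. The sum in APP/TAU mice averaged 305 ± 16.7, 226 ± 10.7 and 270 ± 25.6 TPM in 2P-Im, vehicle and wild type libraries. There 5 of 5 treated libraries lay above every vehicle library and 2 of 5 above every wild type library.

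Gstm5, the second most abundant member, was lower on average in AppNLGF 2P-Im libraries than in the other groups. Its lowest, median and highest levels with median-ratio scaling were 76.4, 87.7 and 93.6 TPM in 2P-Im libraries and 86.8, 90.9 and 100.1 TPM in vehicle libraries, and the wild type libraries held 90.4, 93.3, 98.3 and 95.4 TPM. The ranges overlapped, with 6 of 13 treated libraries below every vehicle library and 9 of 13 below every wild type library. Its fold was -0.06 ± 0.029 against vehicle and -0.11 ± 0.041 against wild type libraries, and neither was called. Among APP/TAU mice Gstm5 measured 86.7, 84.9, 90.6, 79.5 and 91.5 TPM in 2P-Im libraries, 83.9, 82.3, 87.0, 68.1 and 83.4 TPM in vehicle libraries and 92.6, 98.7, 94.6, 109 and 82.0 TPM in wild type libraries. Its fold against vehicle there was 0.10 ± 0.075 with median-ratio scaling but -0.12 as deposited, and neither was called.

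Gstm2, whose human counterpart acts on aminochrome, an oxidation product of dopamine, had its highest mean in the 2P-Im libraries of the APP/TAU table. With median-ratio scaling it measured 3.99, 4.23, 2.73, 3.69 and 3.85 TPM in 2P-Im libraries, 1.75, 1.87, 2.18, 1.73 and 3.18 TPM in vehicle libraries and 1.49, 2.32, 3.11, 3.35 and 3.06 TPM in wild type libraries. So 4 of 5 treated libraries lay above every vehicle library, and 4 of 5 above every wild type library. The fold of Gstm2 against vehicle was 0.59 ± 0.16 with median-ratio scaling and 0.43 ± 0.17 as deposited, and it was not called on either scale. In AppNLGF 2P-Im against vehicle libraries its fold was 0.10 ± 0.10, with 1 of 13 treated libraries above every vehicle library. Gstm2 shares 3.35% of its 31-base words with Gstm1, and how far reads of one were counted to the other was not tested.

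Gstm4, Gstm6 and Gstm7, mu class enzymes encoded in the same cluster, were called in no comparison. Gstm4 had a fold of 0.24 ± 0.097 between AppNLGF 2P-Im and vehicle libraries with median-ratio scaling, with 12 of 13 treated libraries above the vehicle median, and of -0.01 in APP/TAU mice. Gstm6 showed the opposite order, with a fold of 0.04 ± 0.12 in AppNLGF and 0.39 ± 0.24 in APP/TAU mice. In APP/TAU mice 4 of 5 treated libraries lay above every vehicle library, and 3 of 5 as deposited. On either scale 0 of 5 lay above every wild type library. Gstm7 had folds of 0.02 ± 0.090 and 0.08 against vehicle. Its group means were 8.05 to 9.16 TPM in the AppNLGF table and 12.1 to 13.9 TPM in the APP/TAU table, which were normalized separately.

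**Figure D4:**
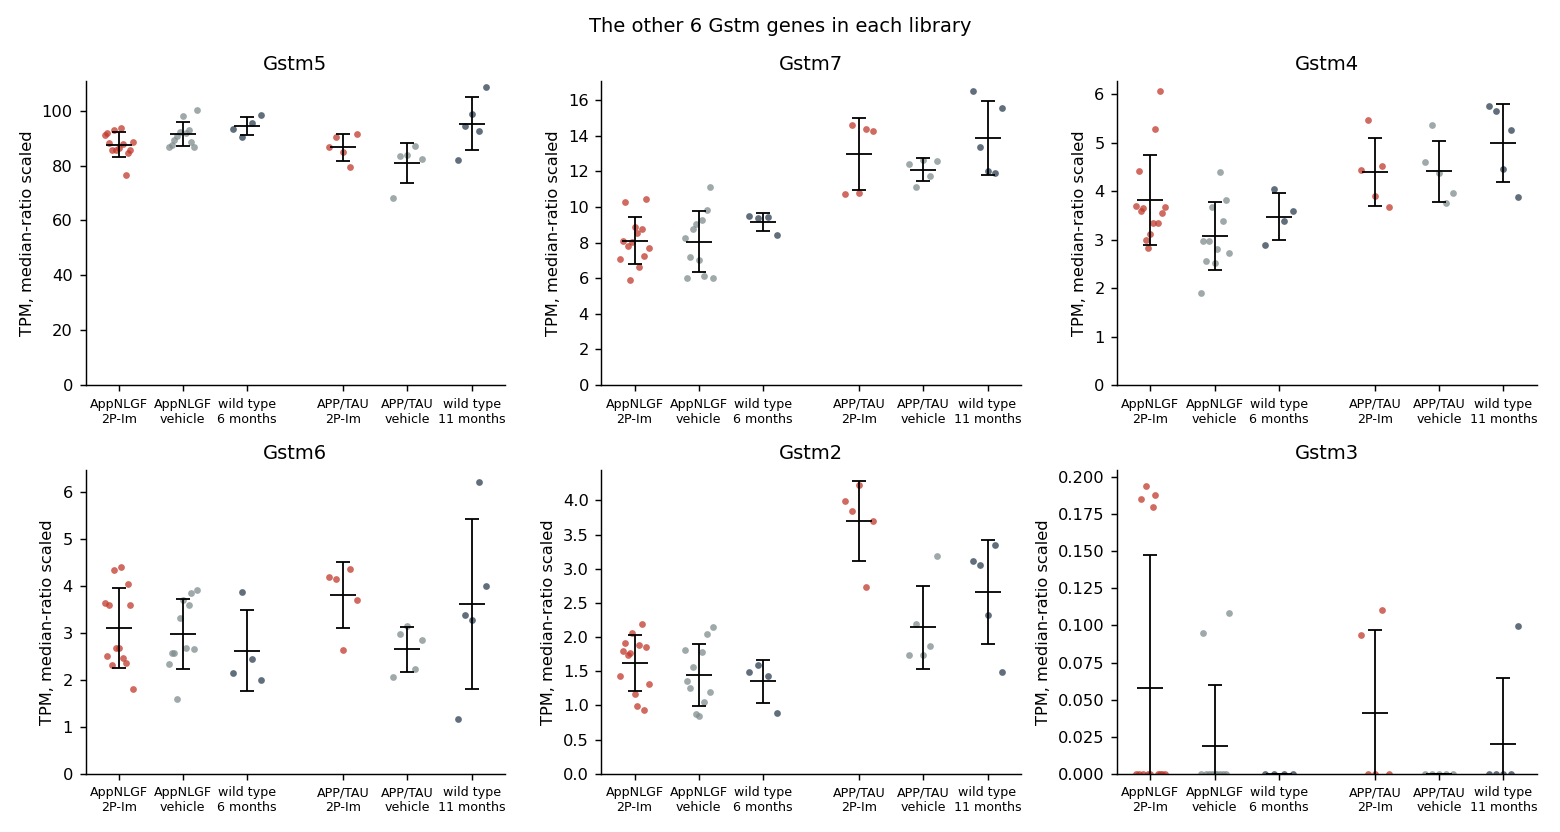
Level in TPM with median-ratio scaling (y axis) of the 6 members other than Gstm1, 1 panel each, in every library of the 6 groups (x axis). Points are libraries and bars the mean ± SD. Treated and vehicle libraries overlap in every panel, and Gstm2 shows 4 of 5 APP/TAU 2P-Im libraries above all 5 vehicle libraries.

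Vehicle libraries of the models were then compared with wild type libraries. For AppNLGF mice, 0 of the 6 tested Gstm members were called by limma on either scale. Of all genes 0.28% were called as deposited and 0.691% with median-ratio scaling, so 0 of 6 is no result about the family. On either scale 0 members had an unadjusted p below 0.05, beside 698 of 16776 genes as deposited and 1183 with median-ratio scaling. The fold of Gstm1 was 0.03 ± 0.14 as deposited (limma, adjusted p = 1) and 0.06 ± 0.092 with median-ratio scaling (adjusted p = 0.956). With median-ratio scaling the folds ran from -0.19 for Gstm7 (adjusted p = 0.839) to 0.14 for Gstm6 (adjusted p = 0.930), with a median of 0.00, as over all genes. Xist, which marks female cells, was above 10 TPM in 7 of 13 2P-Im, 5 of 11 vehicle and 0 of 4 wild type libraries of this table. A fit with a term for Xist was run as an alternative with median-ratio scaling. No wild type library was above 10 TPM, so that term rests on the model libraries alone. The part of sex beyond that term was not tested.

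In APP/TAU mice all 6 tested members had lower mean levels in vehicle than in wild type libraries with median-ratio scaling, and 0 were called. The median of the 6 folds was -0.22, beside 0.00 over all genes. The fold of Gstm1 was -0.26 ± 0.068 (limma, adjusted p = 0.172), with 5 of 5 vehicle libraries below every wild type library, and that of Gstm5 was -0.23 ± 0.075 (adjusted p = 0.215). These were the 2 members with an unadjusted p below 0.05, beside 2502 of all 17592 genes, and 0.0284% of all genes were called. As deposited the median of the 6 folds was -0.04, beside 0.18 over all genes, the fold of Gstm1 was -0.06 ± 0.11 (adjusted p = 0.732), 2 of 5 vehicle libraries lay below every wild type library, and 0 members had an unadjusted p below 0.05, with 0.0227% of genes called. Gstm4 and Gstm7 had folds above 0 as deposited and below 0 with median-ratio scaling. The vehicle libraries entered both this comparison and that with 2P-Im, on which Gstm1 was chosen, so the 2 are not independent.

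Markers of astrocytes, the cells known to hold Gstm1, were summed in each library. In bulk tissue, fewer cells of a type and less RNA per cell cannot be told apart. All 8 markers of astrocytes were found and none was at 0. Their summed level with median-ratio scaling ranged from 906 to 1011 TPM in AppNLGF 2P-Im libraries, 952 to 1090 TPM in vehicle libraries and 916 to 937 TPM in wild type libraries. The APP/TAU sums ranged from 1017 to 1059, 1032 to 1072 and 1063 to 1123 TPM in 2P-Im, vehicle and wild type libraries. Of the 8, 0 were called in 2P-Im against vehicle libraries in either table. The median log2 fold of the 8 markers against vehicle was -0.15 as deposited and -0.11 with median-ratio scaling in AppNLGF mice. The APP/TAU median was -0.18 as deposited and 0.04 with median-ratio scaling, so its sign turned with the scaling. Their part in the level of Gstm1 was not tested.

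The 4 markers of reactive astrocytes, Gfap among them, averaged 171 ± 33.2 TPM in AppNLGF 2P-Im libraries, 174 ± 22.4 TPM in vehicle libraries and 63.9 ± 5.69 TPM in wild type libraries with median-ratio scaling. Gstm1 averaged 119 ± 14.3 TPM in the same vehicle libraries and 113 ± 14.7 TPM in the wild type libraries. The 5 markers of endothelium, which line blood vessels, averaged 58.3 ± 3.81, 52.1 ± 3.82 and 42.4 ± 1.42 TPM in AppNLGF 2P-Im, vehicle and wild type libraries, ranging from 53.3 to 67.7, 48.7 to 60.2 and 41.2 to 44.4 TPM, with none at 0. The APP/TAU means were 78.0 ± 3.10, 78.4 ± 3.72 and 78.8 ± 6.12 TPM in 2P-Im, vehicle and wild type libraries. The part of these markers in the level of Gstm1 was not tested either.

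Other glutathione genes were counted in the same fits, in which 0 to 0.715% of all genes were called, so that a count of 0 in lists of these sizes is near the background. Of 21 other glutathione transferases (alpha, pi, theta, omega, zeta, kappa and microsomal forms among them), 11 were tested in the AppNLGF and 13 in the APP/TAU table, and 0 rose or fell in any of the 6 comparisons by limma on either scale. Their folds in 2P-Im against vehicle libraries with median-ratio scaling had a median of -0.02 in AppNLGF mice, ranging from -0.16 to 0.32, and of 0.11 in APP/TAU mice, ranging from -0.16 to 0.74. Of 17 genes that transport or process glutathione conjugates, 9 were tested in each table, and 0 passed the test. All 8 genes of glutathione synthesis and recycling were tested and 0 passed, with a median fold of 0.10 in AppNLGF and 0.15 in APP/TAU mice on that scale. These lists were chosen with earlier results of the same data known.

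Of the 2 genes taken as readouts of NRF2, Aox1, an aldehyde oxidase, had a fold of 0.52 ± 0.090 between AppNLGF 2P-Im and vehicle libraries with median-ratio scaling, which was called. Nqo1, a quinone reductase widely used to read out NRF2, had a fold of 0.47 ± 0.10, called there and not as deposited. Of all genes 0.286% were called there. Both genes were chosen with earlier results of these data known, so their calls are a description too, and NRF2 activity itself was not tested. In APP/TAU mice their folds against vehicle were 0.63 ± 0.11 for Aox1 and 0.68 ± 0.11 for Nqo1, and neither was called.

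The variation of Gstm1 within groups was set beside that of its family. After subtraction of each group mean, on the log2(TPM + 1) scale with median-ratio scaling, Pearson's r with Gstm1 over the 28 AppNLGF libraries was 0.14 for Gstm7, 0.12 for Gstm6, -0.03 for Gstm2, -0.20 for Gstm4 and -0.30 for Gstm5. There the r of Gstm5 lay above that of 6.83% of the genes compared. Over the 15 APP/TAU libraries Pearson's r was 0.46 for Gstm5, above that of 92.7% of the genes compared. It was 0.22 for Gstm7, 0.14 for Gstm2, 0.03 for Gstm4 and -0.19 for Gstm6. The genes with the highest r were Arv1 (0.74), Abhd4 (0.70), Tmem123 (0.64), Akna (0.64) and Cat (0.62), the last encoding catalase, in AppNLGF libraries. In APP/TAU libraries, out of 17591 genes compared, the 5 highest included Pdpn (0.86), Wdr83os (0.83), Gid8 (0.81) and Adpgk (0.81). No gene was in both sets of 5, and the points share their library preparation and scaling.

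The AppNLGF table also lists single transcripts beside the gene rows, 64708 rows, and 12 of them belong to the family. Of M21 transcripts outside the basic set, 59495 of 60734 have such a row, against 692 of 81033 in the basic set. Summed over libraries, these rows held 2.42% of the combined TPM of Gstm1, 7.96% of that of Gstm2, 2.01% of Gstm5, 19.6% of Gstm6 and 7.39% of Gstm7. Most of the Gstm1 part was ENSMUST00000198532, annotated as a processed transcript of 2 exons, 108013238 to 108013316 and 108012261 to 108012778, the second of which lies within the last exon of the main transcript (108012255 to 108012778). It was above 0 in 6 of 13 2P-Im libraries, 2 of 11 vehicle libraries and 1 of 4 wild type libraries. Its values were 19.7, 17.4, 11.7, 3.79, 12.6 and 5.40 TPM in the 2P-Im libraries, 4.45 and 3.46 TPM in the vehicle libraries and 1.57 TPM in the wild type library. Treated replicate 1, with the lowest Gstm1 gene row of its group (113 TPM), held the highest of these values.

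With the transcript rows added, Gstm1 averaged 174 ± 29.9 TPM in AppNLGF 2P-Im libraries, 122 ± 16.5 TPM in vehicle libraries and 119 ± 16.2 TPM in wild type libraries, without further scaling. Then 10 of 13 treated libraries lay above every vehicle library and 11 of 13 above every wild type library. The fold of Gstm1 between 2P-Im and vehicle libraries was 0.50 ± 0.087 on this sum and was called, as was that against wild type libraries, 0.54 ± 0.12. Transcript rows were added to Gstm members alone, while all other genes kept their gene rows. The sum was also made after seeing the data, on contrasts that bear on the choice of Gstm1, so nothing is read from these calls. With median-ratio scaling the folds on this sum were 0.54 ± 0.062 and 0.61 ± 0.086, and 13 of 13 treated libraries lay above every other library. The APP/TAU table lists no transcript rows, so this sum could not be made there. Gene rows held 88.5 to 91.4% of the total to which TPM are scaled in AppNLGF libraries and 84.9 to 90.8% in APP/TAU libraries. Gene rows thus left out a part of that total in both tables. Whether the 2 tables count Gstm1 gene rows on the same basis was not tested.

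**Figure D5:**
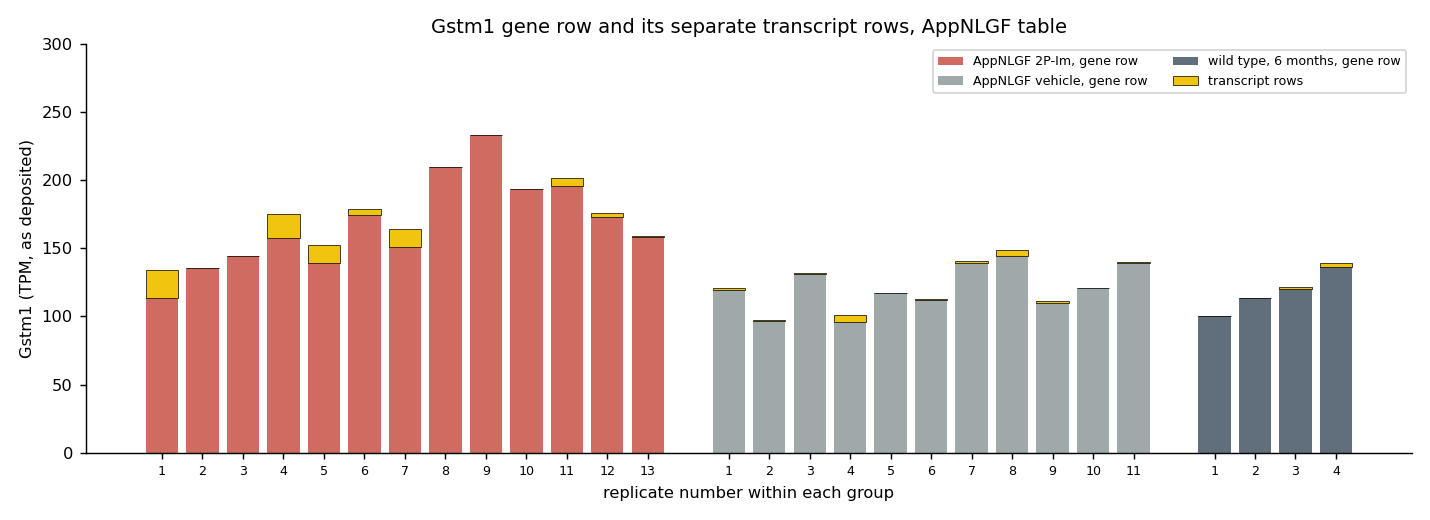
Stacked bars of the Gstm1 gene row and its separate transcript rows in TPM as deposited (y axis, from 0) for each library of the AppNLGF table (x axis). The transcript part reaches 19.7 TPM for the larger of the 2 transcripts in 2P-Im replicate 1 and is 0 or small in most vehicle and wild type libraries. That larger transcript is above 0 in 6 of 13 2P-Im libraries.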

How the data were processed

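Brain RNA was extracted with Sepasol, and libraries were made on an MGISP-960 system (MGIEasy RNA Directional Library Prep Set), per the labels' protocols. Salmon and GRCm38 (mm10) are named in the submitters' processing notes, while Salmon's version and the annotation release were not given in the sources used here. As deposited by the authors, values are TPM in a table for each model, where every library has its own column. Identifiers were matched to symbols for 51327 of 55804 gene rows, and libraries were grouped by their titles. Values were analysed as log2(TPM + 1), so folds of low genes are understated, with limma 3.58.1 in R 4.3.3, with 1.17.8 as the data.table release: 1 mean per group, all 3 groups of a table fitted together, eBayes with a trend, two-sided, Benjamini-Hochberg over genes of mean TPM 1 or more, called below 0.05. The script was tested on simulated data. Median-ratio scaling was computed from the deposited TPM. Errors of TPM are SD and errors of folds SE. Coding sequences and 31-base words came from the GENCODE M21 transcripts and were aligned with Biopython 1.88, and promoters from RefSeq.

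The named genes are the 7 members, any gene of the glutathione lists that was called, Nqo1 and Aox1, and the 5 genes per table with the highest correlation with Gstm1, leaving out predicted names; 1 of these genes is not reported here. Ftl1, Xist, Gstm2-ps1 and ENSMUSG00000118866 were named after their values were seen. The members and the lists were chosen with earlier results of these data known. The alternatives were quantile normalization, TPM rescaled without the most abundant RNA, a pseudocount of 0.1, a minimum mean of 5 or none, robust moderation, a fit of 2 groups alone, a block for the replicate number, terms for replicate number and for Xist, and leaving out each library in turn. Adding the transcript rows and leaving out the APP/TAU vehicle libraries under 20% of the abundant RNA were added after seeing the data.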

Additional observations from a re-analysis of the deposited data

Results flagged for a closer look

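Of 52 sets of values checked, each 1 member in 1 group of 4 or 5 libraries on 1 scale, 7 held a library far from the others. The rule marks about 1 in 20 by chance, but that rate cannot be set against 7 of 52. Both scales hold the same libraries, and Gstm3 was at 0 in most of them. The groups of 11 and 13 libraries were not checked. Wild type replicate 4 of the APP/TAU table stood above its group as deposited in both abundant members, with 182.668 TPM of Gstm1, where the next library held 141.713 TPM, and 125.815 TPM of Gstm5, where the next held 90.2553 TPM. With median-ratio scaling neither gene of that library stood apart. Wild type replicate 2 of that table was the only one of its 5 wild type libraries with Gstm3 above 0, at 0.081232 TPM as deposited and 0.099516 TPM with median-ratio scaling. APP/TAU vehicle replicate 4, a library with an abundant RNA under 20%, held 68.0916 TPM of Gstm5 with median-ratio scaling, below the next library at 82.2866 TPM. In the AppNLGF table, wild type replicate 2 held 4.16035 TPM of Gstm6 as deposited, with the next library at 2.44117 TPM. Wild type replicate 4 held 8.41467 TPM of Gstm7 with median-ratio scaling, with the next at 9.35333 TPM.

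Both transcript rows of Gstm1, which lie outside the gene comparison, reached higher values in a 2P-Im library than in any vehicle or wild type library. ENSMUST00000198532 reached 19.6803 TPM in 2P-Im libraries, against 4.45456 TPM in vehicle and 1.57287 TPM in wild type libraries. ENSMUST00000153314 reached 2.64864 TPM in 2P-Im libraries, against 1.39509 TPM in vehicle and 1.11042 TPM in wild type libraries, and its median was lower in 2P-Im libraries, at 0.392 TPM, against 0.687 TPM in vehicle and 0.692 TPM in wild type libraries. These differences were not tested.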

How the results depend on the processing

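TPM keep no depth, and members under about 5 TPM vary most. Gstm1 kept its direction in 2P-Im libraries under every alternative run, against vehicle and wild type. Its fold without each library in turn ran from 0.42 to 0.50 as deposited and 0.47 to 0.52 with median-ratio scaling in AppNLGF 2P-Im against vehicle, and from 0.38 to 0.48 and 0.61 to 0.68 in APP/TAU. The number of members called was less stable. In AppNLGF 2P-Im against vehicle it went to 1 in place of 0 with median-ratio scaling, quantile normalization, TPM without the most abundant RNA and added transcript rows, and was 0 to 1 without single libraries. In AppNLGF 2P-Im against wild type it went to 1 in place of 0 under those same 4 settings. In APP/TAU 2P-Im it was 1 in place of 0 with median-ratio scaling and quantile normalization against vehicle and with quantile normalization against wild type. With median-ratio scaling it was 0 in place of 1 without the 2 APP/TAU vehicle libraries low in the abundant RNA, and 0 to 1 without single libraries in APP/TAU 2P-Im against wild type. With terms for replicate numbers 1 to 5 and for Xist, the AppNLGF fold of Gstm1 against vehicle was 0.50 ± 0.064 and 0.50 ± 0.066. The cause of these changes was not tested.

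After median-ratio scaling and subtraction of group means, r of same-numbered libraries ran from -0.08 to 0.12 in AppNLGF and -0.06 to 0.09 in APP/TAU. Then 4 of 26 and 6 of 15 libraries were best with their own number, and the number expected without pairing was not computed. Such scaling takes out shifts of a whole library. The abundant RNA held 32.5 to 40.0% of TPM in AppNLGF 2P-Im replicates 1 to 5 and 28.3 to 31.1% from replicate 8 on. In AppNLGF vehicle libraries it held 34.4 to 38.0% and 29.1 to 30.3%. With the replicate number as a block, 1 member was called in place of 0 in AppNLGF 2P-Im against wild type as deposited (Gstm5, -0.26 ± 0.069) and 0 in place of 1 with median-ratio scaling (Gstm1, 0.51 ± 0.11). The block changed no other count of members called. The block fold of AppNLGF vehicle against wild type was -0.16 for Gstm1, -0.15 for Gstm2 and -0.089 for Gstm6 as deposited, and -0.013 for Gstm1, -0.067 for Gstm2 and 0.019 for Gstm5 with median-ratio scaling, all of turned sign.

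Folds of members other than Gstm1 between 2P-Im and other libraries, none called where it happened, also turned sign under some settings: without single libraries Gstm6 ran from -0.042 to 0.057 and Gstm7 from -0.057 to 0.018 in AppNLGF 2P-Im against vehicle as deposited. In vehicle against wild type, where 0 members were called, further turns were these. Gstm2 in AppNLGF was -0.021 with a term for replicate numbers and median-ratio scaling. In APP/TAU, Gstm4 was -0.14, -0.17 and -0.082 and Gstm7 -0.17, -0.17 and -0.10 with median-ratio scaling, quantile normalization and without the abundant RNA, and Gstm7 -0.089 without the vehicle libraries low in it. Without single libraries, AppNLGF folds as deposited ran from -0.042 to 0.11 for Gstm1 and -0.086 to 0.086 for Gstm2, and with median-ratio scaling from -0.056 to 0.095 for Gstm2. Those of APP/TAU as deposited ran from -0.099 to 0.034 for Gstm1, -0.20 to 0.044 for Gstm2, -0.044 to 0.072 for Gstm4, -0.083 to 0.089 for Gstm5, -0.38 to 0.13 for Gstm6 and -0.080 to 0.15 for Gstm7.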
